A study of Mus musculus with 1536 samples.

Results

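The 50 valve-like lymphatic endothelial cells (LECs) described here are 5.94% of the LECs of the adult mouse nasopharynx that were sequenced, and were taken as the cells with the highest mean value over *Cldn11*, *Neo1*, *Plat*, *Gsn* and *Cd24a*. All cells came from the nasopharyngeal mucosa of 30 c57bl/6 mice of both sexes, aged 10–12 weeks, which carried no treatment and whose tissue was pooled before CD31+ PDPN+ cells were sorted into wells. Smart-seq3, in which single cells are sorted into plate wells and their full-length transcripts are copied and sequenced, gave the reads. Reads per 10000 of a cell were deposited after adding 1 and taking the natural log, and are called ln values below. Neither the labels nor the column names give a mouse or a plate, so the adult cells form 1 sample, no p-value is given, and every SD is a spread over cells. Since the wells were sorted for PDPN and CD31, cells with little of either surface protein were not sampled.

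Lymphatic valves are leaflets of endothelium on a matrix core that let lymph pass towards the lymph node and close against its return. The endothelium on the upstream side of a leaflet faces the arriving lymph, whereas the downstream side lines the pocket behind it and uses the gap junction protein connexin 37, the product of *Gja4*. Valve formation is known to depend on the transcription factors PROX1, FOXC2, GATA2 and NFATC1 and on a fibronectin and laminin matrix. The nasopharyngeal plexus carries cerebrospinal fluid towards the deep cervical nodes, and the study annotated its upstream-valve LECs as *Cldn11*-positive cells without *Gja4*.

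The values that chose the cells are given as a description only. The mean ln value over the 5 genes was 2.98 in the highest cell and 1.39 in the 50th, against 1.38 in the 51st, and its median over all other cells was 0.392, so the threshold cut through a continuous range of cells. All 5 genes were found in 17 of the valve-like cells, 4 genes in 24 and 3 genes in 9. *Cldn11*, a tight junction protein, was found in 86% of the valve-like cells. *Neo1*, the netrin and RGM receptor neogenin, was found in 44%. *Plat*, which encodes tissue plasminogen activator, was found in 98%, the actin-severing protein gene *Gsn* in 88%, and *Cd24a*, which encodes a glycosylated surface protein, in 100%.

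Depth differed little between the valve-like cells and the rest at the median, but more of the valve-like cells were shallow. Total reads had a median of 273883 in the valve-like cells (lowest 11769, highest 2427180) and 355306 in the others, with lower quartiles of 42590 and 91790. The median number of genes found was 4027.5 and 4194.5. Shares of cells are therefore also given after every cell had been thinned to 20000 reads, which 47 of the valve-like cells had, and intervals of shares are exact 95% Clopper–Pearson intervals that cover counting error only.

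Lymphatic genes that the choice had not used are given as a description, since every well had been sorted as CD31+ PDPN+. *Prox1*, the transcription factor that specifies lymphatic endothelium, was found in 50 of 50 cells. *Pecam1*, which encodes the CD31 used in the sort, was also found in 50 of 50, and so cannot test the identity of the cells. Mean ln values of *Prox1* were 1.97 ± 0.648 (SD, n = 50 cells) in the valve-like and 1.62 ± 0.698 (SD over all other cells) in the rest. By contrast, *Pdpn* had a mean of 2.20 reads per 10000 against 4.46, *Flt4*, which encodes the lymphatic growth factor receptor VEGFR3, had 6.92 against 13.01, and *Mmrn1*, a lymphatic matrix gene, had 17.7 against 38.6.

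Reads of other cell types were rare, apart from those of blood endothelial genes. Among 6 immune genes, *Ptprc*, *Tyrobp* and *Cd3e* were at 0 in all 50 cells, and the summed level of the list ran from 0 to 7.72 reads per 10000 in the valve-like and from 0 to 272.1 in the other cells. *Epcam*, *Krt8*, *Mbp*, *Rgs5*, *Myh11* and *Vwf* were also at 0. Of the 5 blood endothelial genes *Vwf* alone was at 0. Their summed level had a median of 4.32 reads per 10000 (highest 17.5) against 7.01 in the other cells (highest 45.1). The 5 mural genes summed to at most 1.05 (2 at 0), the 3 epithelial genes to at most 1.58 (2 at 0), the 4 Schwann genes to at most 1.80 (2 at 0), the 3 arachnoid barrier genes to at most 4.45 (1 at 0) and the 5 neuronal genes to at most 9.74 (3 at 0), from 0 in each case. In the other cells the same sums reached 16.8, 8.28, 22.8, 1.601 and 29.03. Arachnoid barrier genes thus reached a higher sum in the valve-like cells, and fibroblast genes did so by more. The highest-ranked cell, with 24063 reads, held reads of 4 of the 5 markers, with ln values of 4.59 for *Dcn* and 3.08 for *Col1a1*, and its *Gsn* value of 5.56 was the highest of the 50. The summed fibroblast level reached 134.7 reads per 10000 in that cell and 23.6 in the other cells, with a median of 0 in both groups and *Pdgfra* at 0. Without the wells that held 3 or more of these markers, the shares of genes past 2-fold given below were 1.596% higher and 3.92% lower.

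The 3 marker genes of these cells that the rule left out, *Nts*, *Gdf15* and *Susd2*, were all higher in the valve-like cells. All 3 had been picked as markers together with the rule genes, with earlier results of these data known. Their values therefore describe the cells and test nothing. *Nts*, which encodes the secreted peptide neurotensin, had ln values from 0 through a median of 2.998 to 5.77, whereas the other cells had a median of 0.209 and values of up to 5.09. Its mean was 46.1 reads per 10000 against 7.42, a log2 ratio of 2.62, and 26 of 50 cells lay above the 90th percentile of the other cells. The 2 groups overlapped over nearly their whole range, since 2 of the 50 cells exceeded the highest of the other cells. *Nts* was found in 96% of the valve-like cells (interval 86.3 to 99.5%) and 78.03% of the others (74.98 to 80.9%), and in 93.6% and 48.8% at equal depth.

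*Gdf15*, a stress-responsive member of the TGF-beta family, had a median ln value of 1.53 (lowest 0, highest 4.50) against 0 in the others, where the highest value was 5.67. Its mean of 12.8 reads per 10000 against 3.21 gave a log2 ratio of 1.97, but 14 of the 50 cells held no read of it. *Susd2*, which encodes a membrane protein with a sushi domain, was found in 25 of the 50 cells and in 25.3% of the others (46.8% and 14.7% at equal depth), with mean ln values of 0.855 ± 0.992 (SD, n = 50) and 0.200 ± 0.511 (SD over all other cells). All 3 of these genes were found together in 16 of the 50 cells (32%, interval 19.5 to 46.7%) and in 98 of the others (12.4%, 10.2 to 14.9%). No valve-like cell lacked reads of all 3, whereas 12.9% of the others did (10.6 to 15.4%). The 3 markers together thus marked some of the 50 cells and not others.

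**Figure D1:**
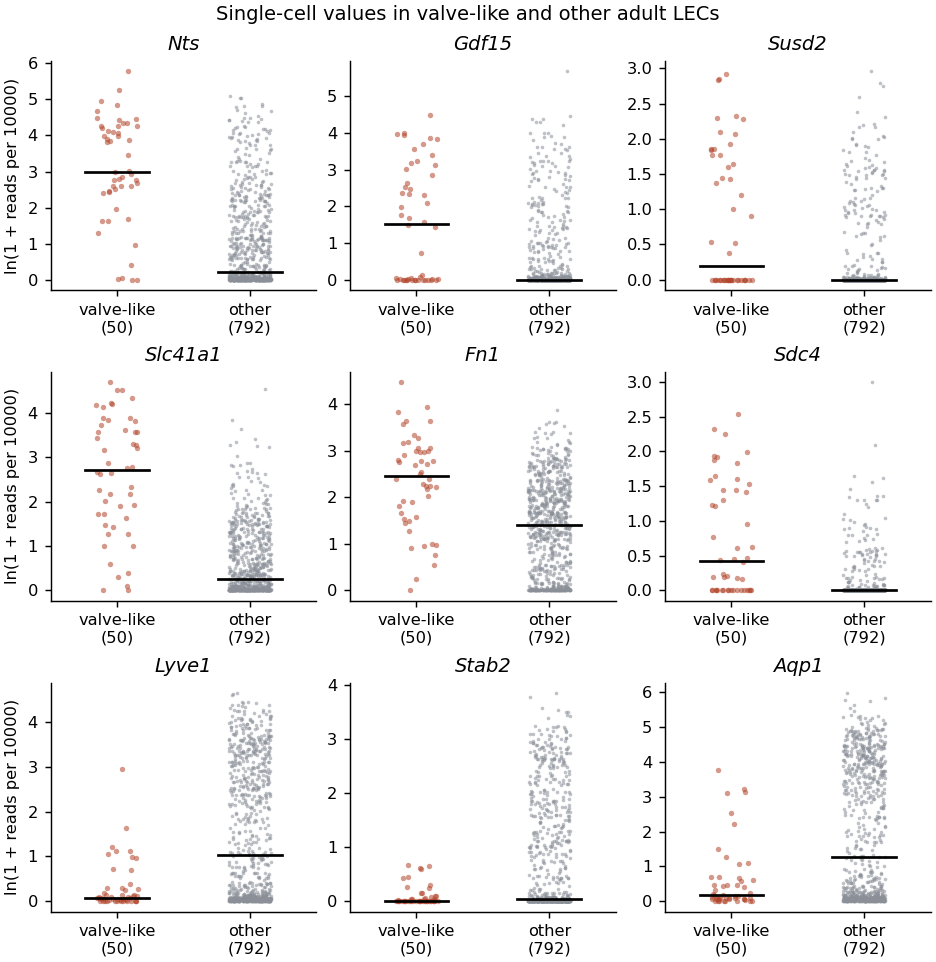
ln(1 + reads per 10000) of 9 genes on the vertical axes for the 50 valve-like cells and all other adult LECs, with 1 point per cell and a black line at the median. *Slc41a1* had a median of 2.72 in the valve-like cells against 0.265 in the others, whereas no valve-like cell reached a *Stab2* value above 0.665.

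Across the 6799 genes found in at least 25% of either group, 1.65% had at least a 2-fold higher mean in the valve-like cells and 3.78% at least a 2-fold lower mean. Ratios were taken between means of reads per 10000 plus 0.1, and the median log2 ratio over these genes was −0.06. Of the gene lists, 3 of 3 valve markers outside the rule were higher, and 9 of 13 capillary markers were lower, against those shares of all genes. The 3 valve markers had been picked together with the rule genes, and the capillary list with earlier results of these data known. Both counts therefore describe the cells and support nothing further.

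*Slc41a1*, which encodes a magnesium transporter of the plasma membrane, stood furthest above the other cells. Its mean was 25.8 reads per 10000 against 1.81, a log2 ratio of 3.76, and its ln values had a median of 2.72 in the valve-like cells (lowest 0, highest 4.70) and 0.265 in the others (highest 4.55). It lay above the 90th percentile of the other cells in 37 of 50 cells, more than any other gene outside the rule that is named here. At equal depth it was found in 93.6% of the valve-like and 50.8% of the other cells.

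Other genes of the leading 15 encode proteins that act at the cell surface or outside the cell. *Sdc4*, which encodes the heparan sulphate proteoglycan syndecan 4, had means of 1.98 and 0.160 reads per 10000 and was found in 64% of the valve-like cells (49.2 to 77.1%) against 16.8% of the others (14.3 to 19.6%), or 48.9% and 9.81% at equal depth. *Slc29a4*, a transporter of monoamines and nucleosides, had a log2 ratio of 2.05, which depended on the cells chosen and was 0.74 for the 25 highest cells and 0.93 by the rule without *Plat*. *Anxa1*, a phospholipid-binding protein with anti-inflammatory activity, had a log2 ratio of 1.67.

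The remaining leading genes act inside the cell. *Net1*, an exchange factor for the GTPase RhoA, had a log2 ratio of 2.19, and *Pdlim4*, an adaptor of the actin cytoskeleton, one of 1.71. *Odc1*, the first enzyme of polyamine synthesis, reached 1.94, and *Nupr1*, a stress-induced chromatin protein, 1.88. *B4galt4*, a galactosyltransferase of the Golgi apparatus, stood at 2.02, as did *Tub*, whose exons overlap those of *Ric3* on the opposite strand, and *Ccdc141* stood at 2.06. Each of these 7 genes had a higher mean in the valve-like than in the *Gja4*-high and *Lyve1*-high cells defined below.

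Several secreted proteins had high ratios but were found in under 50% of the valve-like cells and are named here after their values had been seen. They were *Angptl2* (log2 ratio 3.14, found in 42%), *Gdf10* (2.66, 36%), *Sbspon* (2.57, 38%), *Fibin* (2.44, 46%) and the Wnt modulator *Dkk3* (2.01, 48%). Since these genes were picked for their high ratios, the values describe the cells only. How far the ratios rested on the highest-ranked cell, which held fibroblast genes, was not tested for these genes.

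**Figure D2:**
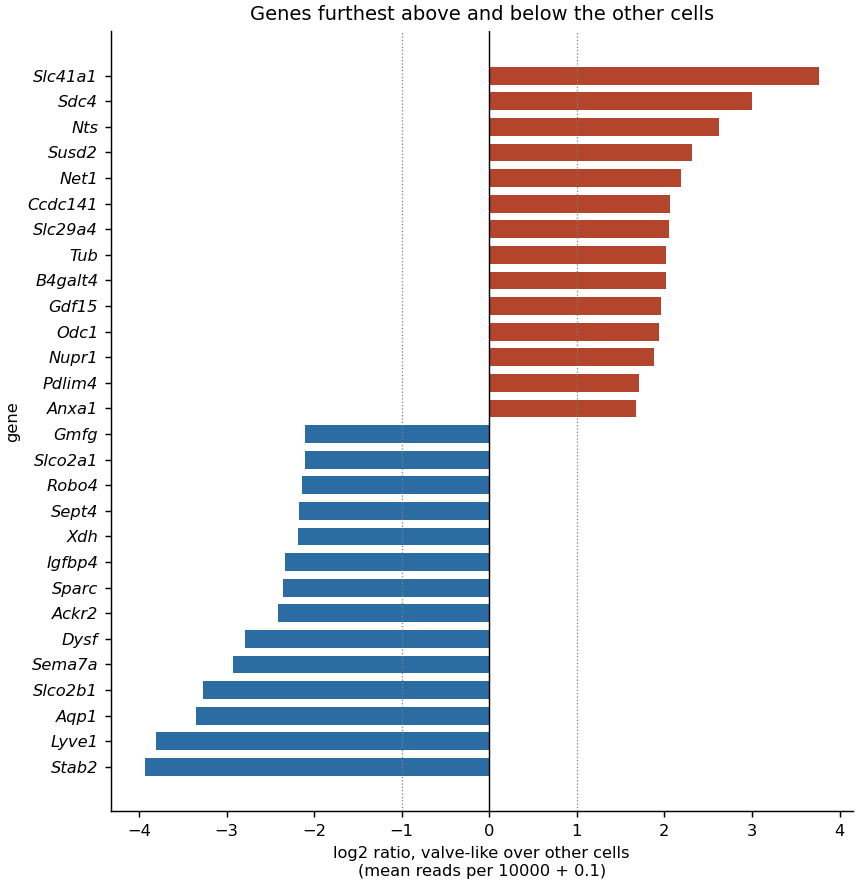
Horizontal bars give the log2 ratio of mean reads per 10000 plus 0.1, valve-like over other cells, for 14 of the 15 genes furthest above and 14 of the 15 furthest below, and dotted lines mark a 2-fold ratio. The ratios ran from 3.76 for *Slc41a1* to −3.94 for *Stab2*.

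*Nts* lies on chromosome 10 at 102481756-102490486 (minus strand), *Slc41a1* on chromosome 1 at 131827493-131848865 (plus), *Gdf15* on chromosome 8 at 70629393-70632456 (minus), *Susd2* on chromosome 10 at 75636706-75644008 (minus), and *Sdc4* on chromosome 2 at 164424247-164443887 (minus), all protein-coding genes on GRCm38. The 250 bases before the transcription start are shown for the leading gene of the ratios and for the marker with the highest ratio outside the rule, from RefSeq on GRCm38.p6, 5′ to 3′ on the strand of the gene. The RefSeq start differs from the gene bounds above, which come from GENCODE, so that the *Slc41a1* window lies inside those bounds and the *Nts* window partly so. The *Slc41a1* window is chr1:131827762-131828011 and the *Nts* window chr10:102490419-102490668. Capitals mark matches to the AP-1 motif TGANTCA, the GATA motif AGATAA, the FOX motif GTAAACA or the CRE core TGACGT on either strand.
*Slc41a1*: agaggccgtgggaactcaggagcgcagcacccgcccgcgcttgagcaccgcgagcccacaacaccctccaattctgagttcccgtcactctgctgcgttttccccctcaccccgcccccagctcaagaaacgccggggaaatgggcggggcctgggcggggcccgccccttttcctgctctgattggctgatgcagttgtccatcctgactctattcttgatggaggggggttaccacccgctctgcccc
*Nts*: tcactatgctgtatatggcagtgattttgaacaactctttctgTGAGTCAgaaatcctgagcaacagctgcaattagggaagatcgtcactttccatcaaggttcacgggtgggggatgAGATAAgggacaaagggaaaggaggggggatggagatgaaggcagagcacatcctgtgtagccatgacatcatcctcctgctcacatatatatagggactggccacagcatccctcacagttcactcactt
The *Nts* window held the AP-1 motif and, nearer to the start, the GATA motif, and the *Slc41a1* window held none of the 4. Windows were present for 13 of the 15 leading genes and for 11 of the 15 lowest. With 50 bases after the start included, the AP-1 motif was in the promoters of 1 of the 13 genes (*Nts*) and of 8.97% of all 27025 genes in the table, and the GATA motif in 2 of the 13 (*Nts* and *Ccdc141*) and 12.7% of all. The FOX motif and the CRE core were in none of the 13 and in 4.05% and 8.37% of all, and a match or its absence says nothing about binding. *Susd2* is named without a window.

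The genes furthest below the other cells were led by genes of lymphatic capillaries, the vessels that take up interstitial fluid. Of 13 capillary markers tested, 9 were lower and none was higher, against 3.78% and 1.65% of all genes. The list was chosen with earlier results of these data known, so the count describes the cells only. *Stab2*, a scavenger receptor for hyaluronan, had a highest ln value of 0.665 in the valve-like cells against 3.86 in the others, and means of 0.127 and 3.37 reads per 10000 (log2 ratio −3.94). *Lyve1*, the hyaluronan receptor that labels lymphatic capillaries, had a median ln value of 0.07 (lowest 0, highest 2.95) against 1.04 (highest 4.65), and a log2 ratio of −3.81, or −4.54 without the highest of the 50 cells. The water channel gene *Aqp1* had a median of 0.166 (highest 3.76) against 1.26 (highest 5.98), and a log2 ratio of −3.35. No valve-like cell lay above the 90th percentile of the other cells for any of the 3, although low reads of *Lyve1* were found in 37 of the 50.

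Other capillary markers past the 2-fold ratio were the organic anion transporter gene *Slco2b1* (−3.26), the mannose receptor gene *Mrc1* (−2.69), *Fndc1* (−2.51), the chemokine scavenger gene *Ackr2* (−2.41), the secreted glycoprotein gene *Reln* (−1.63) and the complement gene *C3* (−1.29, or −2.09 without the cell with fibroblast genes). *Stab1* (−0.98), *Ccl21a* (−0.98), *Piezo2* (−0.83) and *Ptn* (−0.10) were within 2-fold, and *Ptx3*, at −1.40, was found in too few cells to be tested. The summed level of the 14 genes had a median of 21.3 reads per 10000 in the valve-like cells (lowest 3.27, highest 86.4) and 82.2 in the others (lowest 0.890, highest 511.7). The list was low as a whole, but reads of it were never absent.

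Genes outside that list were also among the 15 lowest. *Sema7a*, a membrane-anchored semaphorin, had a log2 ratio of −2.92, and *Dysf*, which encodes the membrane repair protein dysferlin, one of −2.79. *Sparc*, a collagen-binding matrix protein, stood at −2.35, *Igfbp4*, a binding protein of insulin-like growth factors, at −2.33, and *Robo4*, an endothelial guidance receptor, at −2.13. Without the highest-ranked cell, which held fibroblast genes, *Igfbp4* stood at −3.19. *Xdh*, the xanthine oxidoreductase gene, stood at −2.19, *Sept4*, a septin gene that shares exon sequence with Gm11492 on the same strand, at −2.17, the prostaglandin transporter gene *Slco2a1* at −2.11 (−2.74 without 1 of the 50 cells) and *Gmfg* at −2.10. For 12 of the 15 lowest genes no valve-like cell lay above the 90th percentile of the other cells, and for *Igfbp4*, *Robo4* and *Slco2a1* 1 cell did.

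The ratios depended on how cells were averaged. By the difference of mean ln values divided by ln 2, which gives single high cells less weight, 6 of the 15 leading genes stayed past 2-fold (*Slc41a1*, *Nts*, *Gdf15*, *Odc1*, *Nupr1* and *Pdlim4*) and 5 of the 15 lowest (*Lyve1*, *Aqp1*, *Sparc*, *Igfbp4* and *Robo4*). The others kept their direction.

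Transcription factors of lymphatic valves were mostly within 2-fold. None of the 13 tested was 2-fold higher, and *Tbx1* was lower (log2 ratio −1.05), against 1.65% higher and 3.78% lower of all genes. *Foxc2*, the forkhead factor of valve formation, had means of 0.169 and 0.191 reads per 10000 (log2 ratio −0.11) and was found in 12.8% of the valve-like and 13.3% of the other cells at equal depth. *Gata2* had mean ln values of 0.528 ± 0.549 (SD, n = 50) and 0.253 ± 0.456 (SD over all other cells), a log2 ratio of 0.87, and *Nfatc1* had 1.13 ± 0.717 and 0.772 ± 0.671, a log2 ratio of 0.69. *Prox1* stood at 0.55, and the flow-responsive factors *Klf2* and *Klf4* at 0.03 and 0.49. For each of these factors the SDs of the groups overlapped, but they also did for leading genes such as *Susd2*. The overlap therefore does not separate the factors from the leading genes.

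Among 19 matrix and integrin genes tested, 2 were higher and 3 lower, against 1.65% and 3.78% of all genes. These counts are too few to read as a result about the list. *Fn1*, which encodes fibronectin, had a median ln value of 2.45 (lowest 0, highest 4.47) against 1.40 (highest 3.87) and a log2 ratio of 1.51, and *Lama5*, a laminin chain of vessel basement membranes, had one of 1.81 but was found in 19 of the 50 cells. The elastin gene *Eln* (−1.06), the nidogen gene *Nid2* (−1.11) and *Mmrn1* (−1.12) were lower. *Itga9*, a fibronectin-binding integrin chain of valves, had a log2 ratio of 0.32 with mean ln values of 0.856 ± 0.727 and 0.721 ± 0.679. The 2 matrix genes were thus higher without a 2-fold higher receptor chain.

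The partners of 2 of the rule genes were examined because a protease and a guidance receptor had chosen the cells. In the plasminogen system, *Plau*, which encodes urokinase, was lower (log2 ratio −1.54), as was *Thbs1*, which encodes thrombospondin (−2.09), among 14 tested genes of fibrinolysis and coagulation. The urokinase receptor gene *Plaur* stood at 0.98, *Serpine2*, a protease inhibitor, at 0.79, and the thrombin receptor gene *F2r* at 0.95, all within 2-fold. Of 5 netrin, RGM and neogenin partners tested, none was higher and *Bmp4*, a ligand, was lower (−1.45). *Ntn1*, the netrin ligand, had means of 3.55 and 3.90 reads per 10000. The receptor genes *Nrp2* (−1.33) and *Plxna2* (−1.06) were lower together with *Sema7a* among 9 semaphorins, plexins and neuropilins tested, and *Sema3a*, a secreted repellent, had a log2 ratio of 0.93. Of all genes 1.65% were higher and 3.78% lower, and the counts in these lists are too few to set against those shares.

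Signalling and junction lists held single genes past the ratio. *Ednrb*, the endothelin B receptor gene, was the one gene higher of 4 tested peptides and receptors, with a median ln value of 1.80 (lowest 0, highest 3.30) against 0.555 (highest 3.82) and a log2 ratio of 1.54. Of 7 VEGF and angiopoietin genes the ligands *Pgf* (1.36) and *Vegfa* (1.01) were higher, and of 14 junction genes *Esam*, an endothelial adhesion molecule, was higher (1.41) and *Jam3* lower (−1.45). *Tgfbr2*, a TGF-beta receptor gene, was the lower one of 10 in its list (−1.15), and the Notch ligand gene *Jag2* the lower one of 8 in its list (−1.15). Among 10 genes of flow and stretch sensing *Amotl2* was lower (−1.03). Each of these lists held at most 2 genes past the ratio, too few to set their shares against the 1.65% and 3.78% of all genes. The call of *Vegfa* rested on 1 of the 50 cells, without which its log2 ratio was 0.78.

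Listed genes of stress and activation were mostly within 2-fold, but the lists did not hold the stress genes *Gdf15* (1.97) and *Nupr1* (1.88). Of 12 tested integrated stress and p53 targets, *Nqo1*, a quinone reductase gene, was higher (1.14), and *Atf3* (0.71), *Cdkn1a* (0.77) and *Hmox1* (0.78) were within 2-fold. The summed level of that list had a median of 58.9 reads per 10000 in the valve-like cells (0.878 to 207.8). In the others the median was 32.3 (0.318 to 209.8). *Nr4a1*, an immediate early gene, was higher (1.10) among 14, but stood at 0.92 without the cell with fibroblast genes, with *Fos* at −0.35 and *Jun* at 0.11. None of 7 interferon genes, 19 actin regulators or 6 genes of nitric oxide and cyclic GMP was past the ratio, and *Nos3*, the endothelial nitric oxide synthase gene, stood at 0.57. *Actb* had means of 63.9 and 58.8 reads per 10000. Of 6 chemokine genes and receptors, *Ackr2* alone was lower. Single genes past the ratio are too few to set against the 1.65% higher and 3.78% lower of all genes.

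Markers of collecting lymphatics gave a mixed picture. *Igfbp5*, a secreted binding protein of insulin-like growth factors, had a log2 ratio of 0.57 and *Clca3a1* one of 0.07, while *Apoe*, which encodes the lipid carrier apolipoprotein E, was lower (−1.10), a call that rested on 1 of the other cells, without which it stood at −0.75. *Igfbp5* was above an ln value of 1 in 26 of the 50 cells (52%, interval 37.4 to 66.3%) and in 36.7% of the others (33.4 to 40.2%).

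Reads of sex-linked genes were compared because tissue of both sexes had been pooled. *Xist*, which is transcribed from the inactive X chromosome of females, was found in 5 of the 50 cells (10%, interval 3.33 to 21.8%) and in 27.1% of the others (24.1 to 30.4%), or 8.51% and 20.8% at equal depth, and its log2 ratio was −1.67. Y-linked reads without *Xist* were in 35 of the 50 cells and 56.2% of the others. Since the mice cannot be told apart, the sex of the cells and the mouse they came from cannot be told apart either. Both kinds of reads were in 2 of the valve-like wells, and 10 had neither.

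*Gja4* bears on the upstream side of the label, since the study gives it to downstream-valve LECs. It was found in 23 of the 50 cells (46%, interval 31.8 to 60.7%) and in 50.8% of the others (47.2 to 54.3%), with a median ln value of 0 (highest 3.45) against 0.01 (highest 3.87) and a log2 ratio of −0.18. *Cldn11* was found without *Gja4* in 23 of the valve-like cells and together with it in 20, and both were above an ln value of 1 in 8 cells. Above an ln value of 1, *Gja4* was in 9 of the 50 cells (18%, interval 8.58 to 31.4%) and in 29.2% of the others (26.02 to 32.5%). The 50 cells therefore held cells with and without *Gja4*, some of the former at low values only. The study gives *Cldn11* to both valve sides and sets them apart by *Gja4*, so these values do not establish the term upstream.

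Cells with and without *Gja4* were near level in *Nts* and *Slc41a1* but not in every marker. *Nts* had mean ln values of 3.18 ± 1.22 (SD, n = 23 cells) with *Gja4* and 2.98 ± 1.67 (SD, n = 27) without, and *Slc41a1* had 2.64 ± 1.29 and 2.56 ± 1.41. *Gata2* stood at 0.740 ± 0.567 with *Gja4* and 0.348 ± 0.471 without. *Susd2* stood at 0.609 ± 0.919 and 1.06 ± 1.02. *Neo1* was found in 7 of 23 and 15 of 27. Median total reads were 377789 and 208031 in the same order, so cells with *Gja4* were also the deeper ones, and the part of depth was not tested.

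A split by *Neo1*, which was chosen after the values had been seen, set the 50 cells further apart. The 22 cells with *Neo1* reads had a mean ln value of *Slc41a1* of 3.28 ± 1.07 (SD, n = 22) against 2.06 ± 1.30 (SD, n = 28) in those without. *Sdc4* had 1.14 ± 0.793 and 0.427 ± 0.685, and *Susd2* had 1.41 ± 1.001 and 0.420 ± 0.749. These genes also led the comparison with the other cells. Reads of *Neo1* raised the rank of a cell by the rule, so the split cannot be told apart from that rank. *Gdf15* (2.06 ± 1.60 and 1.16 ± 1.43), *Ednrb* (2.07 ± 0.923 and 1.31 ± 0.823) and *Esam* (1.15 ± 0.952 and 0.456 ± 0.639) followed the same order. *Igfbp5* went the other way, at 0.858 ± 1.02 with *Neo1* and 2.01 ± 1.58 without, as did *Igfbp4* (0.140 ± 0.435 and 0.700 ± 0.808), *Sparc* (0.170 ± 0.420 and 0.701 ± 0.831) and *Gja4*, found in 7 of 22 and 16 of 28. *Nts* did not follow the split, at 3.08 ± 1.38 and 3.07 ± 1.56. Median total reads were 299928 and 204572, and *Neo1* is itself a rule gene.

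**Figure D3:**
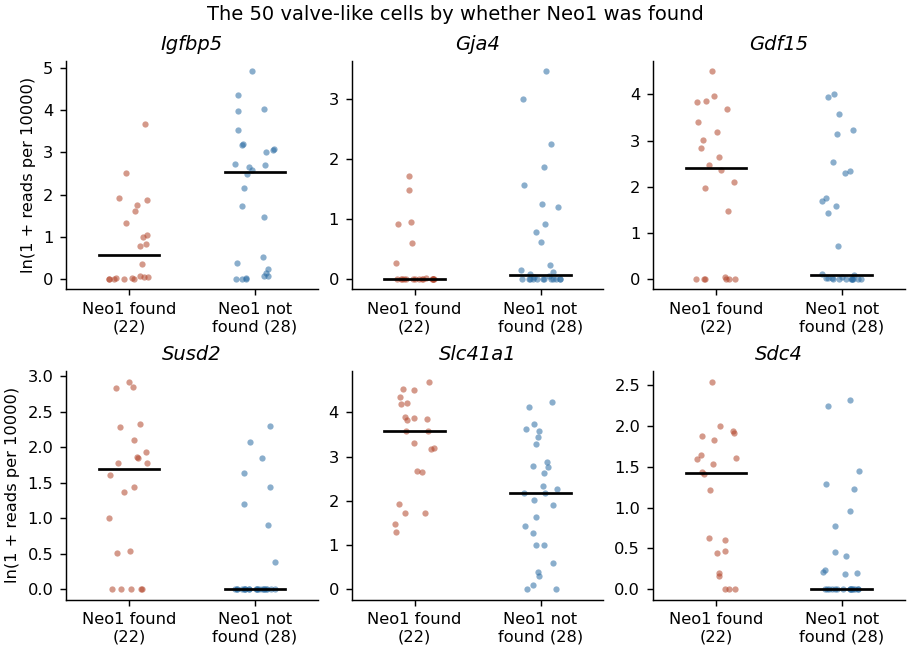
ln(1 + reads per 10000) of 6 genes in the 50 valve-like cells, with 1 point per cell, split into the 22 cells with and the 28 cells without *Neo1* reads, and a black line at the median. The median of *Igfbp5* was 0.561 with *Neo1* and 2.53 without, and that of *Slc41a1* was 3.58 with *Neo1* and 2.18 without.

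The likeness of the 50 cells in other genes was described by the 15 nearest cells of each cell over 15 principal components of the 2000 most variable genes, without the 5 rule genes. The valve-like cells had a median of 7 other valve-like cells among their 15 nearest (quartiles 3 and 10, range 0 to 13), and the other cells a median of 0. At least 5 such neighbours were counted for 32 of the 50 valve-like and 13 of the other cells (1.64%), and none for 7 and 80.2%. At equal depth the median was 6. The count was higher in the cells with *Neo1*, at a median of 10, than in those without, at 3.5, which cannot be told apart from rank by the rule. The 7 cells with none held ranks 31 to 49 by the rule, had *Neo1* reads in 1 cell and had a mean ln value of *Igfbp5* of 2.36 ± 1.25 (SD, n = 7).

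**Figure D4:**
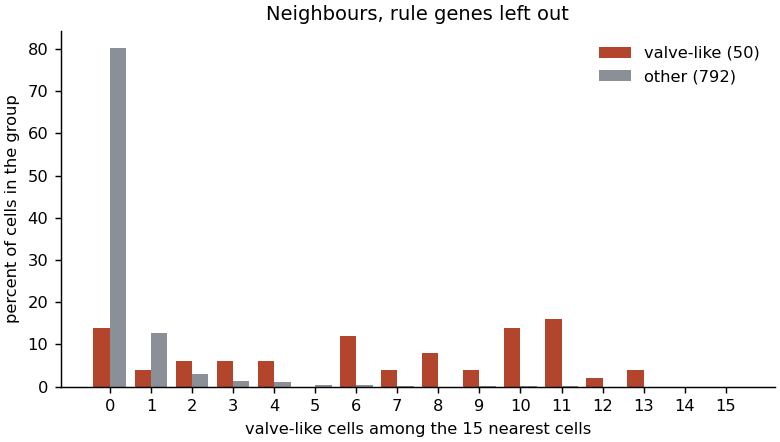
Percent of cells in each group by the number of valve-like cells among their 15 nearest cells (horizontal axis), computed without the 5 rule genes. Of the other cells 80.2% had none, whereas 64% of the 50 valve-like cells had 5 or more.

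To place the cells among the other LECs, they were set beside the 50 other cells with the highest *Gja4* and the 50 with the highest *Lyve1*, which shared no cell. *Nts* had means of 46.1 reads per 10000 in the valve-like, 9.50 in the *Gja4*-high and 8.23 in the *Lyve1*-high cells. *Slc41a1* followed the same order, at 25.8, 2.54 and 0.751. *Sdc4* had 1.98, 0.313 and 0.00408, and *Gdf15* had 12.8, 1.49 and 1.86. In these genes the means of the valve-like cells were above those of both groups, but single cells overlapped. Mean ln values of *Gdf15*, for example, were 1.56 ± 1.56, 0.253 ± 0.729 and 0.235 ± 0.778 in the same order (SD, n = 50 cells each). The 13 other cells with at least 5 valve-like neighbours were also above both groups, with means of 18.7 for *Slc41a1*, 20.7 for *Nts* and 0.642 for *Sdc4*. These genes were therefore not particular to the 50 cells.

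Other genes were shared with the *Gja4*-high cells. *Slc29a4* had means of 1.79 in the valve-like, 1.67 in the *Gja4*-high and 0.05 reads per 10000 in the *Lyve1*-high cells. *Gata2* had 0.987, 1.32 and 0.292, and *Esam* 2.31, 1.75 and 0.356. *Igfbp5* was near level between the first 2 groups, at 12.4 and 13.2, against 4.42 in the *Lyve1*-high cells, and *Apoe* had 3.35, 10.5 and 1.32. *Lyve1*, which chose the last group, had 0.790 in the valve-like and 6.35 in the *Gja4*-high cells, and *Mrc1* had 0.05, 0.368 and 1.57, so both capillary genes were lower in the valve-like cells than in either group. The *Lyve1*-high cells were the deepest, with a median of 936141 reads against 387524 in the *Gja4*-high cells.

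**Figure D5:**
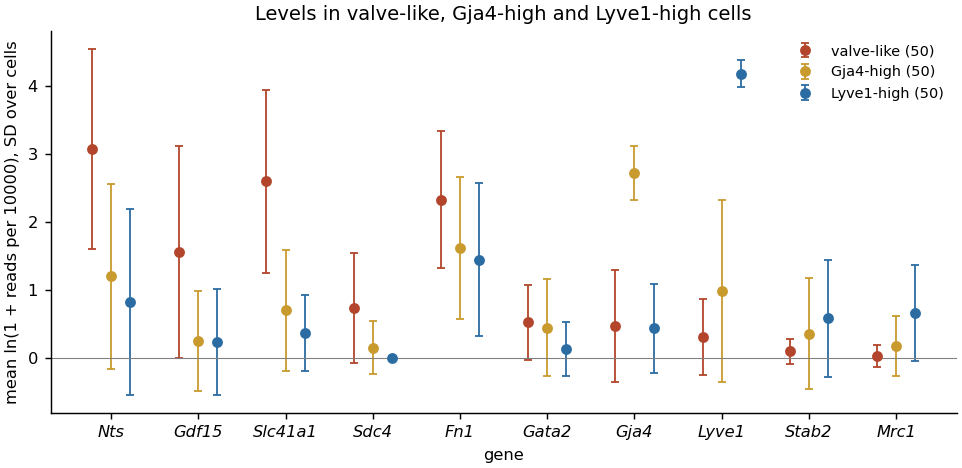
Mean ln(1 + reads per 10000) of 10 genes, with bars of 1 SD over cells, in the 50 valve-like, 50 *Gja4*-high and 50 *Lyve1*-high cells, the last 2 of which were chosen by *Gja4* and *Lyve1*. The mean of *Slc41a1* was 2.60, 0.707 and 0.363 in this order, and that of *Gata2* was 0.528, 0.450 and 0.131.

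The rule genes were also examined in cells that they had not chosen, by taking the 50 cells with the highest mean of the other 4. Without *Neo1* 47 of the 50 cells were the same, without *Gsn* 42, without *Cldn11* 40, without *Cd24a* 38 and without *Plat* 34. The gene left out was higher in the cells chosen by the rest in each case. *Neo1* was found in 38% of the cells chosen without it (interval 24.7 to 52.8%) and in 3.91% of the rest, and *Cldn11* in 70% (55.4 to 82.1%) and 35.2%. The log2 ratios were 3.67 for *Neo1*, 2.52 for *Gsn*, 2.34 for *Plat*, 2.34 for *Cldn11* and 1.83 for *Cd24a*, against 4.19, 2.90, 3.59, 2.99 and 2.40 when the gene took part in the choice. Since 34 to 47 of the 50 cells were the same and the 5 genes had been picked as markers together, these values describe the choice and support nothing further. The *Gsn* values rested largely on the highest-ranked cell with fibroblast genes, and without the wells with 3 or more fibroblast markers they were 1.10 and 1.84 in place of 2.52 and 2.90. Omitting *Plat* replaced the most cells.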

How the data were processed

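Adult LECs were measured by Smart-seq3 in 1536 wells, of which 842 are in the matrix, 50 of them valve-like and 792 others. The authors aligned the reads to mm10 with STAR, counted reads per gene with featureCounts (Subread), kept cells with more than 2000 genes and less than 10% mitochondrial reads in Seurat 4.1.0, and deposited natural log values. Their methods name log2, but the exponential of the value minus 1 summed to 10000 in every cell, and whole reads were recovered for 100% of values above 0 (tolerance 0.01 reads). Annotation, strand and multi-mapping settings are not given in the sources used here, so reads of overlapping genes cannot be told apart. Aged mice were not analysed here.

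The rule, the gene lists and the comparisons were chosen with earlier results of these data known. Genes found in at least 25% of either group were compared by the log2 ratio of mean reads per 10000 plus 0.1, and genes past 2-fold were counted (112 higher and 257 lower). The genes named are the 15 furthest above and the 15 furthest below among those past 2-fold and found in at least 50% of the group in which they were higher, without mitochondrial, ribosomal protein, predicted and rule genes, and the members of 32 gene lists past the ratio. Listed genes at other levels are given as values, and 2 of the 30 leading and lowest genes are not reported here. Of the listed genes, 18 symbols were not analysed here, since the matrix did not carry them under these names. Cells with at least 20000 reads were thinned to that number (47 valve-like and 744 others, 51 left out). Coordinates came from GENCODE M21 on GRCm38, with 22258 symbols (96.1%) matched. Python 3.11.15, NumPy 2.4.6, pandas 2.3.3, SciPy 1.17.1 and scikit-learn 1.9.0 were used, and the steps were tested on simulated data. No doublet caller was run. Alternatives changed the rule, the number of cells, the filter, the pseudocount, the averaging, depth and the wells used.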

Additional observations from a re-analysis of the deposited data

How the results depend on the processing

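The share of genes past 2-fold depended on the measure more than the direction of the named genes did. Of 6799 genes, 1.65% were higher and 3.78% lower. The shares were 0.368% and 0.368% with a pseudocount of 1 (25 genes each way), 0.25% and 0.206% by the difference of mean ln values (17 and 14 genes), 0.984% and 1.85% of 23163 genes with no filter on the share of cells, and 1.61% and 3.73% of 3352 genes with a filter of 50%. With the 25 highest cells they were 3.27% and 7.19% of 6966 genes, and with the 100 highest cells 0.965% and 1.53% of 6733. Settings added after seeing the data gave 2.45% and 5.05% of 7666 genes among cells with at least 100000 reads, where 31 of the valve-like cells stayed, and 4.36% and 7.81% of 7184 for the valve-like cells with *Neo1* reads. Applied to cells with at least 100000 reads alone, the rule kept all 31 valve-like cells of that depth. That outcome was fixed, since each cell is ranked by its own mean. Equal depth, other cells matched on total reads, leaving out wells with reads of both sexes, leaving out wells with 3 or more fibroblast markers (added after seeing the data) and rules without 1 of the 5 genes kept both counts within 1.5 times. Mean ranks, values scaled by their SD and equal depth kept 38, 44 and 46 of the 50 cells. Of 450 values for the 30 leading and lowest genes over the 15 settings that can move a ratio, 29 were no longer past 2-fold and none changed direction. The cause of the changes was not tested. No paired analysis was possible because the adult cells are 1 pooled sample with no replicate groups, and leaving out a mouse or plate in turn could not be done for the same reason. Depth limits genes found in few cells, since 25% of the valve-like cells had at most 42590 reads.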

Other observations

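Outside the 50 valve-like cells, 13 cells had at least 5 valve-like cells among their 15 nearest, at a median rank of 97 by the rule. All 13 held reads of *Slc41a1* (mean ln value 2.51 ± 0.924, SD, n = 13 cells), and 11 held reads of *Gdf15*. Over all 13 cells *Gdf15* had a mean of 48.7 reads per 10000, which the highest cell raised (ln value 5.67, against a median of 2.82). *Ednrb* was found in 13 of them, at a mean ln value of 1.98 ± 0.982, and *Lyve1* had a mean of 0.614 reads per 10000. *Neo1* was found in 2 of the 13 and *Cldn11* in 4. These cells were picked for their neighbours, so the values describe them only.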
